A study of Mus musculus with 3 samples.

Results

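Peg3, Snrpn, Mest, Peg10, Plagl1, Nnat, Kcnq1ot1, Impact, Grb10 and Zrsr1 are imprinted genes whose control regions are methylated in the oocyte. These 10 genes were taken by name from 55413 genes annotated on the assembled chromosomes of GRCm38 (GENCODE M21), and every CCGG site in each gene or within 5 kb of it was used. Starts and positions within genes are those of the basic set of transcripts, and other annotated transcripts of some genes begin further upstream. Sites within 2 kb of a start, where the control regions of such genes lie or are close, were set against the remaining sites of the gene body and flanks.

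An imprinted gene is expressed mainly from the allele of a single parent. In the class described here the oocyte methylates a CpG-rich control region, usually at or near a promoter, and that methylation is kept on the maternal allele after fertilization while the paternal allele remains unmethylated. In early embryos and embryonic stem cells (ESCs) the zinc finger protein ZFP57 binds a methylated TGCCGC core within these regions and, with its partner TRIM28, protects them from loss of methylation. The tables analysed give reads per site and do not separate the parental alleles.

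The measurements were MethylRAD libraries of E14Tg2A, an established mouse ESC line, with 1 library per condition. The undifferentiated library was from cells kept with leukemia inhibitory factor (day 0), and the untreated differentiated library was from cells at day 7 of differentiation by withdrawal of that factor and addition of retinoic acid. The treated differentiated library was from cells at day 7 of the same differentiation with 3 mM pargyline, an inhibitor of the histone demethylase LSD1. The labels of the samples give the state and the treatment, but neither day nor dose, which were taken from the description of the cultures. The names of both differentiated tables carry a 4 after the letters RA, whose meaning the labels do not state, so that the day of these libraries is not certain. FspEI cuts DNA around methylated cytosines, so that the number of reads at a CCGG site rises with its methylation, and the deposited tables list a site only when it has at least 5 reads. An unlisted motif can thus have had up to 4 reads, and it was counted as 0 in sums. The tables held 31614085 CCGG reads at 870345 sites (undifferentiated), 36654600 reads at 882955 sites (untreated) and 25767119 reads at 892366 sites (treated). Reads are given as counts or as scaled reads, which are reads per 1000000 CCGG reads of the library. With a single library per condition there is no spread between replicates and no test across conditions, and the 95% intervals cover counting error only. Because PCR copies of a fragment are counted as separate reads, the intervals can be too narrow even for that error. As a check of the labels, Pou5f1, a pluripotency gene that gains methylation when ESCs differentiate, had 6 reads within 2 kb of its start in the undifferentiated library, 137 in the untreated and 89 in the treated library. Nanog, with 2 motifs in its start windows, had 26, 28 and 13 reads.

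The imprinted genes carried methylated CCGG sites at their starts in all 3 libraries. Within 2 kb of the starts, the reference holds 134 CCGG motifs, and 62 of them were listed in the undifferentiated library (46.3%, Wilson interval 38.0 to 54.7%), 72 in the untreated library (53.7%, 45.3 to 62.0%) and 79 in the treated library (59.0%, 50.5 to 66.9%). Of the 303667 CCGG motifs within 2 kb of any annotated start, 32.9%, 36.8% and 39.9% were listed in the same libraries. Each of the 10 genes had at least 1 start motif listed in all 3 libraries, and 55 of the 134 motifs were listed throughout. A further 45 motifs were listed in none.

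As a ratio to all starts, the listed share was highest in CpG-rich sequence. The CpG context of a motif was read from 500 bp around it, with the cut-offs of the authors. High context needed a CpG ratio over 0.75 together with more than 55% GC. Low context was a ratio under 0.48, and the rest was intermediate. Among 68 start motifs of the imprinted genes in high CpG context, 35.3% were listed in undifferentiated cells (25.0 to 47.2%), 39.7% in untreated cells (28.9 to 51.6%) and 45.6% in treated cells (34.3 to 57.3%). Over all 93756 start motifs of that context the shares were 2.17%, 8.12% and 9.95%. Per motif, the CpG-rich starts of the imprinted genes had 0.335, 0.382 and 0.365 scaled reads, against 0.00908, 0.0284 and 0.0429 over all starts. All 3 intervals of the imprinted genes lay above the corresponding shares of all starts. The Wilson intervals treat motifs as independent, although many share a gene, with 20 of the 68 at the Grb10 start at 12037401 and 14 at Zrsr1. They do not cover differences between genes, so that this comparison is descriptive. In intermediate context the imprinted genes had 58.3%, 63.9% and 66.7% of 36 motifs listed, against 18.1%, 25.0% and 33.0% of all start motifs. Their mean scaled reads per motif in this context showed no such excess in the differentiated libraries. The means were 0.583, 0.521 and 0.577 against 0.539, 0.596 and 0.672, and very deep sites can raise a mean. The median of the listed sites was higher in the imprinted genes. It was 0.6275 against 0.3001 scaled reads in untreated and 0.5433 against 0.3881 in treated cells. Over the start motifs of all contexts the imprinted genes were lower in mean scaled reads per motif in each library. The means were 0.472 against 0.503 in untreated and 0.514 against 0.530 in treated cells, although more of their motifs were listed. The median of the listed sites did not keep this order. It was lower in undifferentiated cells (0.6326 against 0.6959), but higher in untreated (0.6138 against 0.5729) and treated cells (0.6598 against 0.6209). In low CpG context, where most start motifs of the genome were listed, 56.7%, 73.3% and 80.0% of 30 motifs were listed, against 61.9%, 62.8% and 64.1%, and the intervals of all 3 libraries include the share of all starts.

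**Figure D1:**
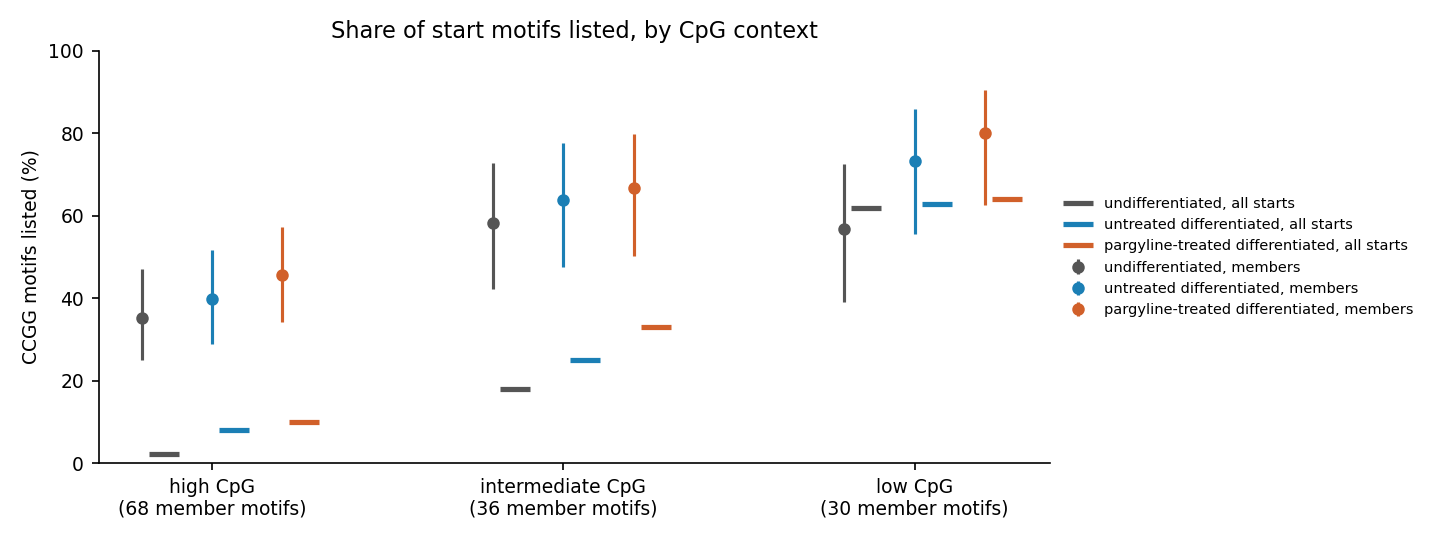
Share of CCGG motifs within 2 kb of a start that were listed, in percent, by CpG context and library. Points are the 10 imprinted genes with 95% Wilson intervals and horizontal bars are all annotated starts; in high CpG context the imprinted genes lie between 35.3% and 45.6% and all starts between 2.17% and 9.95%.

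The levels of the genes differed among themselves by more than their counting intervals, which make no allowance for PCR copies. In undifferentiated cells the start level was highest at Mest with 1.06 scaled reads per motif (0.970 to 1.16) and lowest at Peg10 with 0.113 (0.0731 to 0.167). Plagl1 (0.731), Zrsr1 (0.660) and Kcnq1ot1 (0.588) came after Mest with intervals that overlap from each to the next, and then Nnat (0.328), Impact (0.298), Snrpn (0.253), Grb10 (0.218), Peg3 (0.171) and Peg10 formed a chain of overlapping intervals. In the untreated library Mest (1.08) and Plagl1 (0.955) overlapped at the top, and in the treated library Mest (1.02) stood above a chain that ran from Impact (0.715) to Snrpn (0.186). The median of the 10 genes was 0.313, 0.400 and 0.596 scaled reads per motif in the undifferentiated, untreated and treated libraries. Across 15909 genes with at least 5 start motifs, of which 50% or more lie in intermediate or high CpG context, the median was 0.0917, 0.105 and 0.140, and all 10 imprinted genes were above it in each library, although Nnat, with 6 of 13 motifs in such context, is outside this class. Across all 24465 genes with at least 5 start motifs, whatever their context, the median was 0.183, 0.196 and 0.241, and 8, 9 and 9 of the 10 were above it.

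**Figure D2:**
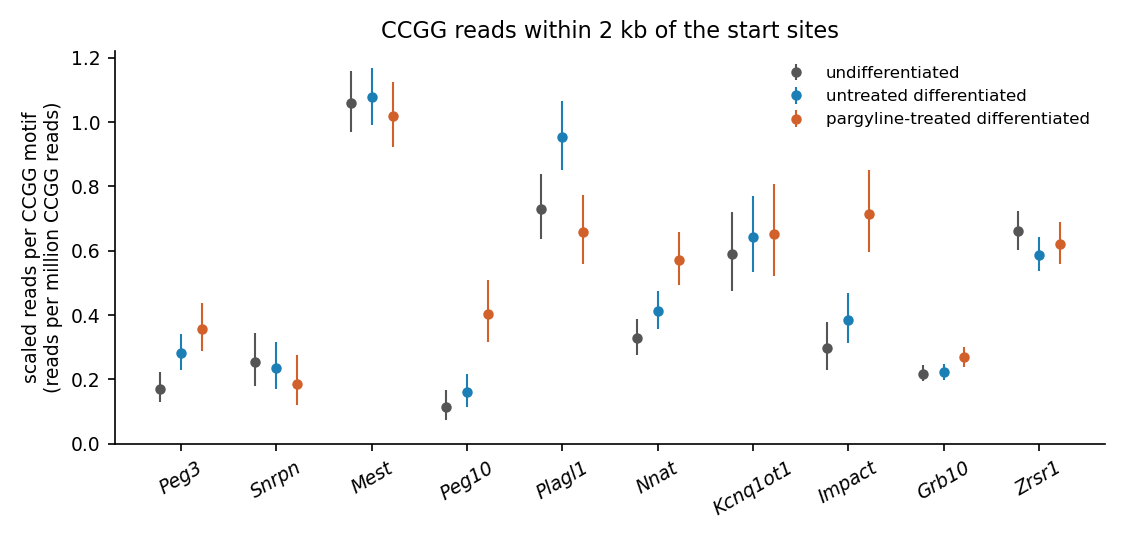
Scaled reads per CCGG motif (reads per 1000000 CCGG reads of the library) within 2 kb of the starts of each gene, in the 3 libraries. Points are single libraries and bars are exact 95% Poisson intervals for counting error; Mest was highest in every library, and Peg10, Impact and Nnat were higher in the treated library than in the others, with intervals that do not overlap.

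Summed over the 10 genes, the start regions held a slightly larger share of CCGG reads after differentiation, but a smaller share of all mapped reads. They held 1866 reads in the undifferentiated library, 2316 in the untreated and 1776 in the treated library, which gives folds of 1.07 (1.01 to 1.14) for untreated against undifferentiated, 1.17 (1.09 to 1.25) for treated against undifferentiated and 1.09 (1.02 to 1.16) for treated against untreated. The median fold of all 33921 genes with at least 60 start reads over the 3 libraries was 1.05, 1.10 and 1.05 in these comparisons, and the median of the imprinted genes was 1.18, 1.17 and 1.13. Scaling to all mapped reads of a library instead of its CCGG reads multiplies every fold by 0.802, 0.618 and 0.771, so that the summed folds fall below 1 (0.858, 0.721 and 0.841), as does the median of all genes (0.840, 0.681 and 0.813). Relative to the median gene, which no scaling changes, the median imprinted gene was at 1.12, 1.06 and 1.07. In each comparison 6 of the 10 imprinted genes were above the median gene and 4 below.

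A fold above 2 or below 1/2 is called here a gain or a loss past 2-fold. Between untreated and undifferentiated cells, 0 of the 10 imprinted genes passed it at the start in either direction, against 10.4% of all genes upwards and 7.16% downwards. Between treated and undifferentiated cells, 3 of 10 were past 2-fold upwards (Peg10, Impact and Peg3) and 0 downwards, against 17.0% and 7.53% of all genes. Between treated and untreated cells, 1 of 10 passed upwards (Peg10) and 0 downwards, against 7.83% and 2.56%. In the bodies and flanks, 0 of the 10 genes passed 2-fold in any of the 3 comparisons, where 7.72%, 10.3% and 3.70% of all genes with at least 60 reads did so in either direction. Scaling to all mapped reads, with its factor of 0.618, would take the Peg3 body fold of 0.677 in treated against undifferentiated cells below 1/2. The share of all genes for bodies was not computed under that scaling. Under the scaling to all mapped reads only Peg10 among these 3 remained past 2-fold in treated against undifferentiated cells (2.21), while Impact came to 1.48 and Peg3 to 1.29. The same scaling put Snrpn past 2-fold downwards in that comparison (0.455), as it did 26.7% of all genes, and took Peg10 below 2-fold in treated against untreated cells (1.95). Peg3 was also below 2-fold when scaled by the median ratio of sites (1.98) and when unlisted motifs were given 4 reads (1.76), which left 2 genes upwards.

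**Figure D3:**
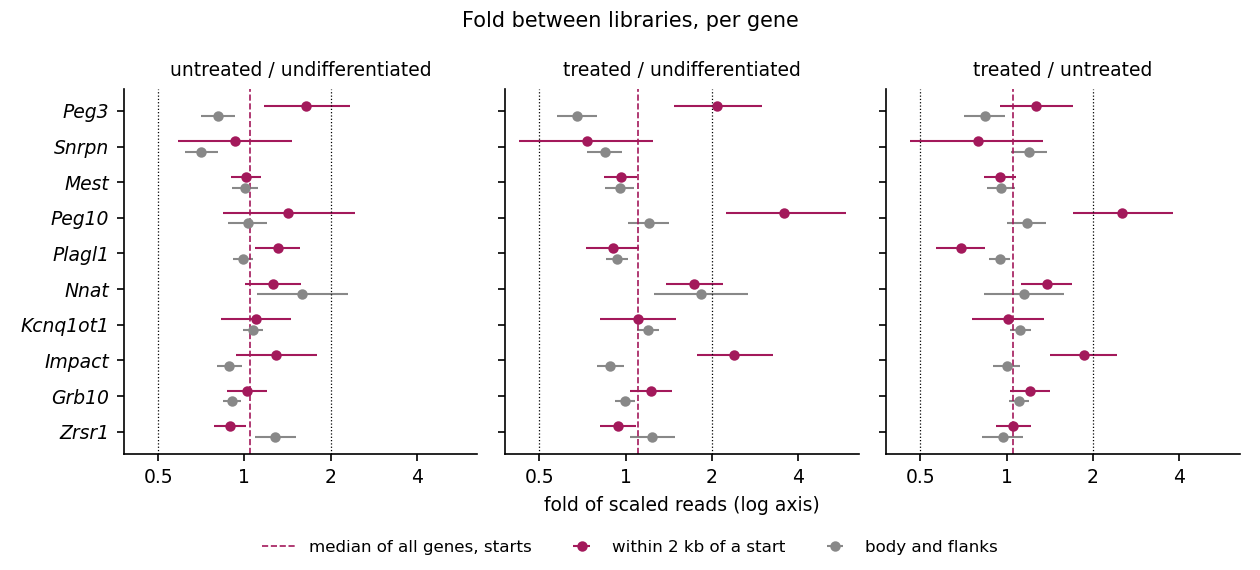
Fold of scaled reads between libraries for each gene, within 2 kb of the starts and in the body and flanks, on a log axis. Points are ratios of single libraries, bars are exact 95% intervals for counting error, dotted lines mark 0.5 and 2 and the dashed line is the median start fold of all genes (1.05, 1.10 and 1.05); scaling to all mapped reads would move every point and that line by the factors 0.802, 0.618 and 0.771.

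At the listing limit of 5 reads, single motifs appeared more often than they disappeared. Relative to undifferentiated cells, 13 start motifs of the imprinted genes (9.70%) were newly listed in the untreated library and 3 (2.24%) were no longer listed, against 7.75% and 3.84% of all start motifs. In the treated library 23 motifs (17.2%) were newly listed and 6 (4.48%) were no longer listed relative to undifferentiated cells, against 11.1% and 4.10%. Relative to untreated cells, 15 motifs (11.2%) were newly listed in treated cells and 8 (5.97%) were no longer listed, against 7.98% and 4.92%. Most of these motifs were near the listing limit. The motifs gained in treated relative to undifferentiated cells had a median of 7 reads, and 6 of the 23 had at least 10. In treated relative to untreated cells, 1 gained and 2 lost motifs had at least 10 reads.

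The start regions had fewer reads per motif than the bodies and flanks, but not in every gene. Over the 10 genes together the start level was 0.608 of the body level in undifferentiated cells, 0.680 in untreated and 0.716 in treated cells, and 7, 7 and 8 genes were below 1. Mest and Nnat were above 1 in all 3 libraries. The body and flank sites, of which 66.2%, 64.1% and 63.1% of 287 motifs were listed, had summed folds of 0.957 (0.926 to 0.990), 0.991 (0.956 to 1.03) and 1.04 (0.999 to 1.07) in the order of comparisons above.

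Peg3 and Plagl1 encode zinc finger proteins that bind DNA. Peg3 (chr7:6703892-6730431, minus strand) had 54 reads at 10 start motifs in undifferentiated cells, 103 in untreated and 92 in treated cells. Its start fold was 1.65 (1.17 to 2.33) in untreated and 2.09 (1.48 to 2.98) in treated against undifferentiated cells, while its body and flanks were at 0.808 (0.705 to 0.926) and 0.677 (0.577 to 0.793). Start and body thus moved in opposite directions, and with a window of 5 kb around the start, which takes in more of the body, the treated fold was 0.996. The site with most start reads over the libraries, chr7:6729941-6729944 in an intron 480 bp after the start, had 14, 42 and 37 reads. Usp29, the neighbour that is read from the same region in the opposite direction, had 137, 217 and 174 start reads, and part of its window is shared with Peg3.

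Plagl1 (chr10:13060504-13131694, plus strand), a regulator of growth and cell cycle arrest, had 208, 315 and 153 reads at 9 start motifs, 7 of them in high CpG context. Scaled to CCGG reads, the start was higher in untreated than in undifferentiated cells, at 1.31 (1.09 to 1.56). It was lower in treated than in untreated cells, at 0.691 (0.566 to 0.841). No other start of the 10 genes had an interval below 1 in treated against untreated cells under this scaling. Scaled to all mapped reads, the Plagl1 start was at 1.05 (0.876 to 1.25) in untreated and 0.558 (0.449 to 0.690) in treated against undifferentiated cells. Sites within the same CpG-rich stretch did not move together. The site at chr10:13091187-13091190, in an intron 352 bp after the nearest start, had 88, 184 and 84 reads, and the site at chr10:13090812-13090815 had 12, 62 and 36 reads. By contrast the site at chr10:13091012-13091015 had 35, 19 and 6 reads, and the site at chr10:13091039-13091042 had 42, 39 and 11. The body and flanks of Plagl1, with 1201, 1375 and 913 reads, were at 0.987 and 0.933 of undifferentiated cells.

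Kcnq1ot1, Snrpn and Zrsr1 act through RNA. Kcnq1ot1 (chr7:143203458-143296549, minus strand) is a long non-coding RNA transcribed from the paternal allele within Kcnq1, where it silences neighbouring genes in cis. Its 5 start motifs had 93, 118 and 84 reads, with folds of 1.09 (0.827 to 1.45), 1.11 (0.815 to 1.50) and 1.01 (0.756 to 1.35), and all 3 intervals include 1. The values depended on the scaling and the window. Scaled to all mapped reads, the treated fold against undifferentiated cells was 0.685 (0.504 to 0.930). Within 5 kb of the start the treated fold was 1.42 (1.14 to 1.78) against undifferentiated cells, and within 1 kb it was 0.645 (0.417 to 0.979) against untreated cells. The deepest site, chr7:143295616-143295619 in the transcript 933 bp after its start, had 64, 75 and 34 reads and was the only listed site within 1 kb of the start, where the treated fold against undifferentiated cells was 0.652.

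Snrpn (chr7:59982495-60140219, minus strand) encodes a core protein of spliceosomal ribonucleoproteins. Its upstream start has no CCGG motif within 2 kb, and the 5 motifs at the other start had 40, 43 and 24 reads, with a treated fold of 0.736 (0.424 to 1.25) against undifferentiated cells. The sum hides changes at single sites. The site 20 bp after the start, chr7:60005091-60005094 in the untranslated part of the first exon, had 32, 7 and 5 reads, and its fold was 0.189 (0.0703 to 0.435) in untreated and 0.192 (0.0583 to 0.496) in treated cells. At 462 bp after the start the counts were 8, 23 and 11, and at 532 bp they were 0, 13 and 8. With at least 10 reads required per site, the treated fold of Snrpn was 0.422, past 2-fold downwards. Snurf shares the start region and its values.

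Zrsr1 (chr11:22972005-22976496, plus strand), an intronless gene related to a splicing factor, lies in an intron of Commd1. It had 459, 474 and 352 reads at 22 start motifs, of which 15 were listed in each library, and its folds were 0.891 (0.782 to 1.01), 0.941 (0.817 to 1.08) and 1.06 (0.918 to 1.22). All 3 intervals include 1, but within 5 kb of the start the folds against undifferentiated cells were 0.844 (0.746 to 0.955) in untreated and 0.849 (0.741 to 0.972) in treated cells. Under scaling by the median ratio of sites the untreated fold was 0.840 (0.738 to 0.958). Scaled to all mapped reads, the folds against undifferentiated cells were 0.714 (0.627 to 0.813) in untreated and 0.581 (0.504 to 0.669) in treated cells. Of all start sites with at least 60 reads over the 3 libraries, the site at chr11:22972844-22972847 had the largest fall in untreated cells, with 37, 12 and 13 reads (0.280, 0.133 to 0.548). The site 36 bp upstream of it, at chr11:22972808-22972811, had 17, 58 and 31 reads. The body and flanks were at 1.28 (1.09 to 1.51) and 1.24 (1.04 to 1.49) of undifferentiated cells. The start region of the host gene Commd1, which overlaps the flank of Zrsr1, had 181, 327 and 239 reads.

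Grb10, Mest and Impact encode proteins of signalling and metabolism. Grb10 (chr11:11930508-12038683, minus strand), an adaptor that restrains insulin receptor signalling, has 3 starts that differed in level. The 3 motifs around the start at 11970642 had 85, 101 and 74 reads, with all motifs listed in all libraries. Around the start at 12027971, in a Grb10 intron, 15 motifs (11 in high CpG context) had 91, 147 and 140 reads, with folds of 1.39 (1.07 to 1.83) and 1.89 (1.44 to 2.49) in untreated and treated against undifferentiated cells. Around the start furthest upstream in the basic set, at 12037401, 23 motifs (20 in high CpG context) had 107, 86 and 70 reads, and most of these reads came from 2 sites more than 1 kb upstream of it. The high CpG motifs of this start were nearly free of listed sites, and without this start 45.8%, 52.1% and 58.3% of the remaining 48 high CpG start motifs of the imprinted genes were listed. Over all 3 starts the gene had 283, 334 and 284 reads and folds of 1.02 (0.866 to 1.20) and 1.23 (1.04 to 1.46). Scaled to all mapped reads these folds were below 1, at 0.816 (0.694 to 0.959) and 0.761 (0.643 to 0.900). Within 1 kb of the starts, however, the counts were 25, 80 and 97, and the folds 2.76 (1.74 to 4.51) and 4.76 (3.04 to 7.71), where 14.1% and 22.1% of all genes were past 2-fold upwards. A large part of that gain came from the site at chr11:12028193-12028196, in an intron 222 bp upstream of the middle start. It was not listed in undifferentiated cells and had 34 and 30 reads in the others. Its untreated value, at least 7.33-fold higher when 4 reads are assumed for the unlisted site, was the largest rise in untreated against undifferentiated cells among start sites with at least 60 reads over the libraries.

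**Figure D4:**
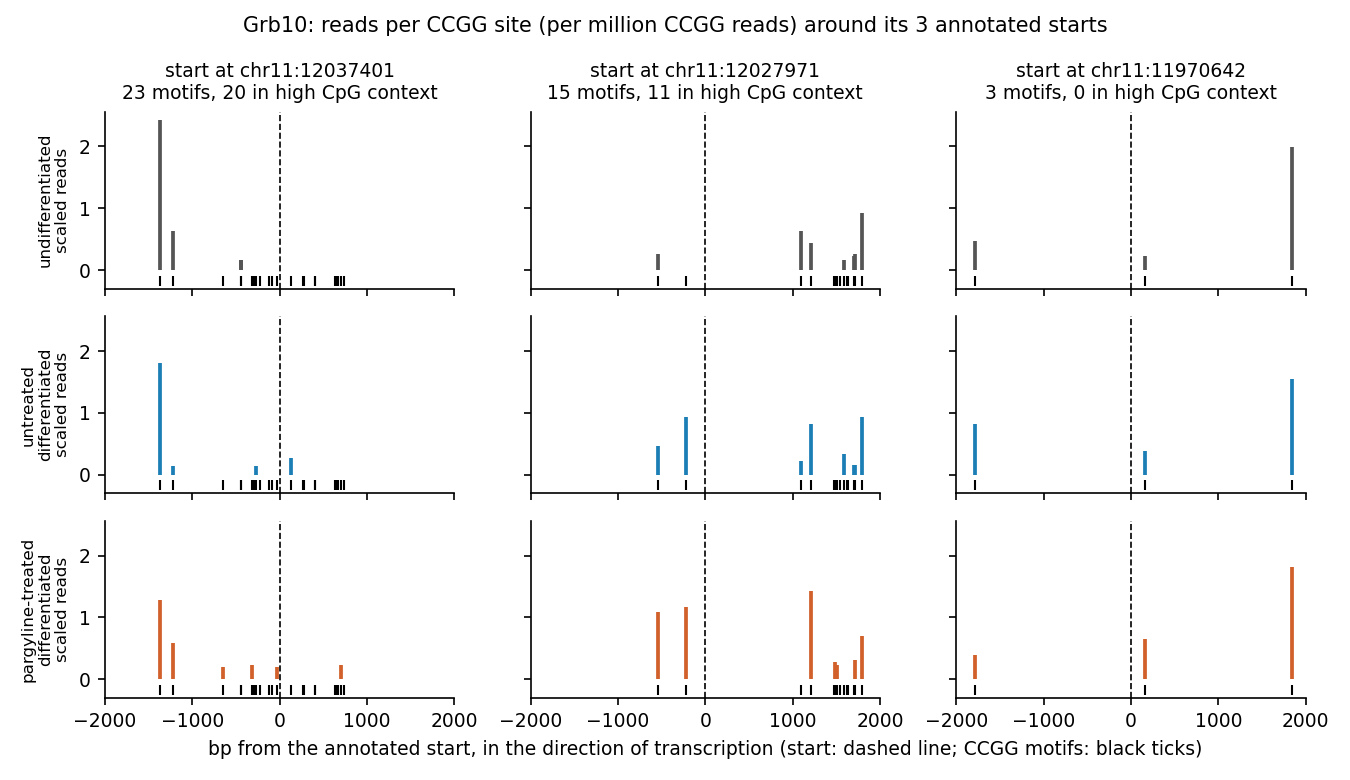
Scaled reads per CCGG site (reads per 1000000 CCGG reads of the library) within 2 kb of the 3 annotated Grb10 starts, by distance in bp along the direction of transcription, with 1 row of panels per library. Black ticks are all CCGG motifs of the reference and vertical lines are listed sites; the CpG-rich motifs at the start at 12037401 are mostly unlisted, whereas several of those 1484 to 1787 bp after the start at 12027971 are listed.

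Mest (chr6:30723547-30748465, plus strand) encodes a protein of the hydrolase family and had the highest start level, with 503, 592 and 394 reads at 15 motifs. Its start folds were 1.02 (0.900 to 1.15), 0.961 (0.840 to 1.10) and 0.947 (0.831 to 1.08), and its body and flanks were at 0.957 in treated against undifferentiated and 0.953 in treated against untreated cells. Scaled to all mapped reads, the start folds against undifferentiated cells were 0.814 (0.721 to 0.918) in untreated and 0.594 (0.519 to 0.679) in treated cells. Both starts with motifs had similar levels, with 199, 257 and 150 reads at the upstream start and 304, 335 and 244 at the CpG-rich start. Over the 3 libraries together, the deepest start site of all 10 genes was chr6:30737450-30737453, in an intron 600 bp before the CpG-rich start. It had 194, 145 and 71 reads and was at 0.645 (0.516 to 0.804) in untreated and 0.449 (0.337 to 0.592) in treated cells. The Plagl1 site at chr10:13091187-13091190 was deeper in the untreated (184 reads) and treated (84 reads) libraries. The site at chr6:30732411-30732414, upstream of the basic transcripts, with 76, 36 and 10 reads, had the largest fall among start sites with at least 60 reads in both comparisons of treated cells, at 0.161 (0.0744 to 0.313) of undifferentiated and 0.395 (0.175 to 0.813) of untreated cells. In the opposite direction, the site at chr6:30736489-30736492 had 18, 57 and 57 reads, and the site at chr6:30732876-30732879 had 22, 45 and 54.

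Impact (chr18:12955852-12992950, plus strand), a regulator of the translational response to amino acid shortage, had 66, 99 and 129 reads at 7 start motifs. The start fold was 1.29 (0.938 to 1.79) in untreated and 2.40 (1.77 to 3.28) in treated against undifferentiated cells, and 1.85 (1.42 to 2.43) in treated against untreated cells. Its body and flanks had 784, 805 and 566 reads and were at 0.886 in both comparisons with undifferentiated cells. Most of the rise came from the site at chr18:12970575-12970578, 1348 bp upstream of the start in low CpG context, which was unlisted in undifferentiated cells and had 28 and 44 reads in the others. Its treated value, at least 13.5-fold higher with 4 reads assumed for the unlisted site, was the largest rise in treated against undifferentiated cells among start sites with at least 60 reads. The sites in an intron, at chr18:12973130-12973133 with 31, 37 and 38 reads and at chr18:12973218-12973221 with 23, 16 and 22, changed less. The site at chr18:12972197-12972200, 274 bp after the start and the only listed site within 1 kb of it, had 12, 18 and 25 reads, a treated fold of 2.56 (1.24 to 5.58) against undifferentiated cells. With only motifs in intermediate or high CpG context the treated fold of Impact was 1.36, and with the starts of all annotated transcripts, a set added after the data had been seen, it was 1.31. Of the unlisted Impact motifs, 2 lie in a 32-base sequence that occurs more than once in the genome, where uniquely mapped reads cannot be placed.

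Peg10 and Nnat share a promoter or an intron with another gene. Peg10 (chr6:4747306-4760517, plus strand), a gene derived from a retrotransposon and needed for the placenta, had the lowest start level in undifferentiated cells and the largest gene-level rise in treated cells. Its 7 start motifs had 25, 41 and 73 reads, and the folds were 1.41 (0.840 to 2.43) for untreated and 3.58 (2.25 to 5.89) for treated against undifferentiated cells, and 2.53 (1.70 to 3.81) for treated against untreated cells, or 1.95 in this last comparison when scaled to all mapped reads. The untreated fold changed direction with 4 reads for unlisted motifs (0.939) and with at least 10 reads required per site (0.862), and the latter gave 4.27 for treated against untreated cells. The rise in treated cells was seen at 2 low CpG sites, with 6, 7 and 25 reads at chr6:4746904-4746907 upstream of the start and 19, 19 and 32 reads at chr6:4748873-4748876 in an intron. The second of these had the largest rise in treated against untreated cells among start sites with at least 60 reads over the libraries (2.40, 1.32 to 4.47), and the first, below that limit, was at 5.08 (2.14 to 13.9). Among its 4 high CpG motifs, 0 were listed in undifferentiated cells, and 2 neighbouring motifs had 5 reads each in untreated cells and 9 and 7 in treated cells. Within 1 kb of the start the treated fold was 8.38 (3.54 to 24.2), from 6 reads in undifferentiated and 41 in treated cells. Peg10 shares its promoter with Sgce, which is read in the opposite direction and has the same start values, and the body and flanks of Peg10 were at 1.21 (1.02 to 1.42) in treated cells.

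Nnat (chr2:157560078-157562522, plus strand) encodes neuronatin, a small membrane protein of neural tissue, and lies in an intron of Blcap. It had 135, 197 and 191 reads at 13 start motifs, with folds of 1.26 (1.01 to 1.58), 1.74 (1.39 to 2.18) and 1.38 (1.12 to 1.69). Of the 13 motifs, 6, 6 and 10 were listed. Its deepest site, chr2:157560310-157560313 in an intron, had 55, 82 and 77 reads, and 3 motifs further into the gene were listed in treated cells alone with 5 reads each. The body and flanks, with 49, 90 and 73 reads, were at 1.58 (1.11 to 2.29) and 1.83 (1.26 to 2.68) of undifferentiated cells. Scaled to all mapped reads, the start folds of Nnat were 1.01 (0.806 to 1.27) in untreated and 1.07 (0.856 to 1.35) in treated against undifferentiated cells.

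Over the single start sites with at least 60 reads in the 3 libraries together (36 sites), 7 were past 2-fold upwards and 4 downwards in untreated against undifferentiated cells, 10 and 7 in treated against undifferentiated cells, and 2 and 4 in treated against untreated cells. Among 56723 such sites at all starts, 15.5% and 12.6%, 18.5% and 15.0%, and 6.73% and 5.78% did so.

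Motifs close to another motif were listed less often. Motifs with another CCGG within 16 bp made up 35 of the 134 start motifs, and 11.4%, 11.4% and 34.3% of them were listed. Over all starts, 7.21%, 14.4% and 18.3% of such motifs were listed. The spacing of motifs was not separated from CpG context, and its effect was not tested. Of the 45 start motifs listed in no library, 21 had such a neighbour. Because 11 pairs of adjacent listed start sites lie within 28 bp of each other and can be counted from the same fragments, the intervals of sums over such sites are too narrow.

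The following stretches, with CCGG in capitals, are shown because they hold the most CCGG motifs near the starts of Plagl1, Kcnq1ot1 and Zrsr1 outside untranslated parts of coding transcripts, and their motifs differed in reads. All are from GRCm38 on the strand of the gene. The Plagl1 intron at chr10:13091027-13091202 (plus strand) has 15 CpG and 3 CCGG, with reads of 42, 39 and 11 at the first, 0 at the second and 88, 184 and 84 at the third. The Kcnq1ot1 stretch at chr7:143295362-143295631 (minus strand), in the transcript and within an intron of Kcnq1, has 4 CCGG with 64, 75 and 34 reads, then 9, 23 and 24, then 0, 8 and 14, and last 20, 12 and 12. The Zrsr1 upstream sequence at chr11:22971828-22971916 (plus strand), within an intron of Commd1, has 3 CpG, all of them in its 3 CCGG, with 14, 19 and 12 reads, then 9, 8 and 5, and last 20, 32 and 30.
Plagl1: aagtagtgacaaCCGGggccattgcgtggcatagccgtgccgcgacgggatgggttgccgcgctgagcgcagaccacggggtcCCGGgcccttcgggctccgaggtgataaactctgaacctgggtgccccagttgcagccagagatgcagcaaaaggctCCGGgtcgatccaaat
Kcnq1ot1: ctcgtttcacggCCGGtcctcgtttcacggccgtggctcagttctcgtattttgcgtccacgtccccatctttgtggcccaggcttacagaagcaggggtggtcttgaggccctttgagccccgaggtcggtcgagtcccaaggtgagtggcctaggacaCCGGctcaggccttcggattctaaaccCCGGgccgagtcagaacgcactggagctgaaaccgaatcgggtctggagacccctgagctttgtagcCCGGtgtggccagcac
Zrsr1: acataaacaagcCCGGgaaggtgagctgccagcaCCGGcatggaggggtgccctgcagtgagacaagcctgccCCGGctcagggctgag

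The CpG-rich stretches of Grb10 are shown as a contrast, since they hold more motifs and a smaller share of them was listed. The intronic stretch at chr11:12026331-12026512 (minus strand) has 38 CpG and 8 CCGG, several of them 10 bp apart. From its 5′ end, the motifs numbered 2 to 4 were listed in treated cells alone with 7, 6 and 6 reads, number 6 had 5, 12 and 0 reads, and the others were unlisted. The stretch upstream of the start at 12037401 and of all basic transcripts, chr11:12037476-12037738 (minus strand), has 46 CpG and 7 CCGG. Motif number 1 from its 5′ end had 6 reads in treated cells alone, and number 4 had 5 reads in untreated cells alone.
Grb10 intron: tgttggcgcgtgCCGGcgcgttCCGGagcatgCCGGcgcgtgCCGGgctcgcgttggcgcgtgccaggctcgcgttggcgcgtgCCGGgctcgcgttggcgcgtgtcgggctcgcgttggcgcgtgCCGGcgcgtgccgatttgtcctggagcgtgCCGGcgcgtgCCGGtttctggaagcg
Grb10 upstream: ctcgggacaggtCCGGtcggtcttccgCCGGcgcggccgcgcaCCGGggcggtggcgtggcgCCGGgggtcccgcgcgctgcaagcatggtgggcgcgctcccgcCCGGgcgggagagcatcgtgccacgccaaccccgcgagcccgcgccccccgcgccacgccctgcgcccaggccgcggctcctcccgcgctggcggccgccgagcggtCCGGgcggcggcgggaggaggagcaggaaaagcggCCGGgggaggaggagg

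The deepest start sites of Plagl1, Nnat and Kcnq1ot1 lie in high CpG context and those of the other genes in intermediate or low context. Of the latter, 30 bases around the sites of Peg3, Mest and Peg10 are shown, with CCGG in capitals, as examples of sites in introns. The Peg3 site is at chr7:6729928-6729957 (minus strand), the Mest site at chr6:30737437-30737466 (plus strand) and the Peg10 site at chr6:4748860-4748889 (plus strand), all in introns of these genes, with 1, 2 and 1 CpG.
Peg3: accacccagaatcCCGGgagaatccaggct
Mest: caaaggaagtgtaCCGGtgccaccgtggtg
Peg10: ttgtggaaactgtCCGGttttctgggtggg

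The motif TGCCGC, the core bound by ZFP57, was searched on both strands within 1 kb of each start. It was found 12 times at the CpG-rich Mest start, 10 times at Snrpn, 6 times each at Peg3, Plagl1 and Nnat, 5 times at the Grb10 start at 12037401, 3 times at Kcnq1ot1 and 2 times at Peg10. No match was found within these windows at Impact, Zrsr1, the upstream Snrpn start and the other Grb10 starts, and the upstream Mest start had 1. Of all 77161 starts, 32.6% had at least 1 match, and 68.2% of the high CpG starts, 49.5% of the intermediate and 16.1% of the low CpG starts did, with medians of 1, 0 and 0 matches. A match does not show that the protein is bound there.

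Other genes with oocyte-methylated control regions had median folds of 1.19, 1.33 and 1.14 in the 3 comparisons. Their summed start folds against undifferentiated cells, 1.26 (1.18 to 1.34) in untreated and 1.46 (1.36 to 1.56) in treated cells, were above those of the 10 genes. Among Airn, Igf2r, Nespas, Gnas, Nap1l5, Mcts2, Inpp5f and Peg13, 36.5%, 51.4% and 56.9% of 181 start motifs were listed in the undifferentiated, untreated and treated libraries. Past 2-fold upwards were 1 of 8 in untreated (Nap1l5, 52 to 156 reads, 2.59-fold, 1.88 to 3.61) and 2 of 8 in treated against undifferentiated cells, namely Nap1l5 with 86 reads (2.03, 1.42 to 2.92) and Nespas with 186, 424 and 347 reads (2.29, 1.91 to 2.75), and 0 of 8 between treated and untreated cells. The shares of all genes upwards were 10.4%, 17.0% and 7.83%. Scaled to all mapped reads, Nap1l5 (1.25) and Nespas (1.41) were below 2-fold in treated against undifferentiated cells. Under that scaling 0 of 8 passed upwards and 1 (Peg13, 0.498) downwards, against 6.99% and 26.7% of all genes. Scaled to CCGG reads, 0 of 8 passed in the downward direction in the 3 comparisons, against 7.16%, 7.53% and 2.56% of all genes. Peg13 had 251, 210 and 165 reads, with intervals below 1 in untreated (0.722, 0.598 to 0.870) and treated (0.807, 0.659 to 0.986) against undifferentiated cells.

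The imprinted neighbours, which are mostly silenced in cis without oocyte methylation of their own starts, began at a lower level. Of 201 start motifs in 17 such genes, 29.9%, 40.8% and 45.3% were listed, and 11 genes had at least 60 start reads. Past 2-fold downwards were 0 of 11 in each comparison, against 7.16%, 7.53% and 2.56% of all genes. Upwards were 1 of 11 in untreated, 4 of 11 in treated against undifferentiated cells and 2 of 11 in treated against untreated cells, where 10.4%, 17.0% and 7.83% of all genes were. The 4 were Kcnq1 (14, 54 and 42 reads), Cdkn1c (86, 128 and 217), Phlda2 (52, 114 and 133) and Sgce, whose window is that of Peg10. Cdkn1c, an inhibitor of the cell cycle, was at 3.10 (2.40 to 4.02) of undifferentiated and 2.41 (1.93 to 3.02) of untreated cells, and Phlda2, which restrains growth of the placenta, at 3.14 (2.26 to 4.41) of undifferentiated cells. Cdkn1c and Phlda2 lie in the domain that Kcnq1ot1 silences, where the Kcnq1ot1 start itself was at 1.11 and Slc22a18, between them, at 1.15 (0.979 to 1.35). Scaled to all mapped reads, Cdkn1c (1.91) and Phlda2 (1.94) were below 2-fold in treated against undifferentiated cells. This left 2 of 11 upwards and 1 (Zim1, 0.327) downwards, against 6.99% and 26.7% of all genes. In treated against untreated cells 0 of 11 were then upwards, against 3.92% of all genes. Among the host or overlapping genes Commd1, Blcap, Kcnq1, Sgce and Snurf, 4 had at least 60 start reads. Of these 4, 1 passed 2-fold upwards in untreated and 2 in treated against undifferentiated cells, against 10.4% and 17.0% of all genes. They are Kcnq1 and Sgce again. Scaled to all mapped reads, 2 of the 4 were upwards and 1 (Snurf, 0.455) downwards in treated against undifferentiated cells, against 6.99% and 26.7% of all genes.

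For comparison with starts that are methylated on both alleles, 10 germline genes (Dazl, Ddx4, Mael, Sycp3, Stk31, Tex101, Slc25a31, Asz1, Hormad1 and Tdrd1) had 61.2%, 73.5% and 75.5% of 98 start motifs listed. Their level per motif was 0.472, 0.531 and 0.553 scaled reads, against 0.440, 0.472 and 0.514 at the starts of the imprinted genes. Dazl alone passed 2-fold, in treated against undifferentiated cells (100, 229 and 196 reads, 2.40, 1.88 to 3.09), where 17.0% of all genes did so upwards. Scaled to all mapped reads it was at 1.49, and 2 of the 10, Tex101 and Asz1, were past 2-fold downwards, as were 26.7% of all genes.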

How the data were processed

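MethylRAD libraries of genomic DNA, 1 per condition, were used. The authors removed adapters, mapped reads to GRCm38 with Bowtie2 2.3.3 with at most 1 mismatch, used reads with a unique place in the genome. The tables they deposited hold, per CCGG, CCAGG or CCTGG site with 5 reads or more, counts and RPM values, that is counts per 1000000 mapped reads. FastQC 0.11.3 is named in the submitters' processing notes. Counts were used, and RPM values served only to recover the mapped reads for an alternative scaling.

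CCGG rows in or within 5 kb of the genes (310 rows) were joined to the CCGG motifs of the reference and to GENCODE M21 basic transcripts, and 8 rows, none of them in a start region, were not CCGG in the reference. Region sums were divided by the CCGG reads of the table. Intervals at 95% were exact Poisson for levels, exact conditional binomial (Clopper-Pearson) for ratios and Wilson for shares. Region sums, calls and intervals were tested on simulated data. For calls and intervals the simulated counts were independent Poisson draws. They held no PCR copies or shared fragments, so that the intervals were not tested for these. Genes with at least 60 reads over the 3 libraries gave the shares past 2-fold over all genes. The sites named by rule were the start site with most reads in each gene and, in each comparison, the start site of at least 60 reads with the largest rise and fall, where an unlisted site was taken at 4 reads; the other named sites were chosen after their values were seen. The members and gene lists were chosen with earlier results of these data known. Alternatives were 3 other scalings, windows of 1 and 5 kb, 4 reads for unlisted motifs, at least 10 reads per site, reference CCGG only and CpG-rich start motifs only. A set of 3 more was added later.

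The scripts ran under Python 3.11.15 with SciPy 1.17.1 for intervals, pandas 2.3.3 and numpy 2.4.6 for tables, and figures were drawn in matplotlib 3.10.9. CCAGG and CCTGG counts were not used. Near these genes, all 69 CCAGG and all 64 CCTGG sites of the undifferentiated library had the same count in the untreated library.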

Additional observations from a re-analysis of the deposited data

Results flagged for a closer look

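CCAGG sites, which the comparisons do not use, differed in number between the libraries near these genes. In or within 5 kb of the 10 imprinted genes, 231 CCAGG sites with 3143 reads were listed in the treated library, against 69 sites with 1161 reads in the undifferentiated library, the control. The untreated library listed the same 69 sites, each with the same count, and the 64 CCTGG sites carried 838 reads in every library. The excess of CCAGG sites in treated cells was flagged because it lies outside the CCGG measurement and above the control library, and its cause was not tested. The paper counts CCAGG and CCTGG sites as a single class. Genome-wide it reports more of them in both differentiated libraries than in undifferentiated cells, and most in untreated cells. A larger number in treated than in undifferentiated cells is therefore not particular to these genes. The untreated counts near these genes, equal to the undifferentiated ones, differ from that order. Counts that are equal at every site in separate libraries look like a duplication in the deposited tables, so 231 against 69 cannot be read as a difference between conditions.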

How the results depend on the processing

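Of 268 planned gene folds, 234 stayed, 33 moved and 1 reversed, and of 135 planned summed values, 107 stayed and 28 moved. The folds that stayed include all those with reference CCGG only. That setting could not change a start sum, because every listed start site was CCGG in the reference. The label reversed does not cover every change of direction. Scaled to mapped reads, Grb10 in treated against undifferentiated cells went from 1.23 to 0.761 and was counted as moved. The summed fold of that comparison, from 1.17 to 0.721, was also counted as moved. With 4 reads for unlisted motifs, Peg10 in untreated against undifferentiated cells went from 1.41 to 0.939. It was counted as stayed, and 0.939 lies inside the main interval (0.840 to 2.43). The alternatives added after the data had been seen gave 90 gene folds (83 stayed, 7 moved) and 45 summed values (32 stayed, 13 moved). Among them, leaving out the distal Grb10 start could change the gene folds of Grb10 alone. No paired analysis was possible because each condition had 1 library.

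Scaled to mapped reads, the summed start folds were 0.858, 0.721 and 0.841 (untreated and treated against undifferentiated, treated against untreated). In treated against undifferentiated cells 1 gene was then past 2-fold upwards and 1 (Snrpn, 0.455) downwards (6.99% and 26.7% of all genes), and 0 were upwards in treated against untreated cells (3.92%). Within 1 kb of the starts, 2 genes (Peg10 2.44, Grb10 2.76) were upwards in untreated against undifferentiated cells (14.1% of all genes). The summed fold of treated against untreated cells was then 0.973 and the start to body ratio 0.748 in untreated cells.

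Within 5 kb, 1 gene was upwards in treated against undifferentiated cells (8.77% of all genes), and the ratios were 0.692, 0.750 and 0.812. Peg3, the fold counted as reversed, was then at 0.996 (0.814 to 1.22), which is near no change. With CpG intermediate or high motifs only, 1 gene (Peg3, 2.06) was upwards in untreated against undifferentiated cells (27.4% of all genes) and 1 upwards and 1 (Snrpn, 0.491) downwards in treated against undifferentiated cells (44.0% and 6.32%). In treated against untreated cells 0 were upwards (26.1%), because Peg10, at 2.28, had under 60 reads and was not counted. The summed folds of treated cells were then 1.04 and 1.02, and the ratios 0.621 (untreated) and 0.610 (treated). A Peg10 value against undifferentiated cells could not be given there, because no such start motif was listed in the undifferentiated library.

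With at least 10 reads per site, the listed shares were 35.8%, 40.3% and 39.6%, the treated ratio was 0.678, and Snrpn was downwards in treated against undifferentiated (1 gene, 0.422; 9.64% of all genes) and untreated cells (1 gene, 0.435; 4.21%). With 4 reads for unlisted motifs the undifferentiated ratio was 0.663. Peg3 in treated against undifferentiated cells was then at 1.76, and at 1.98 under scaling by the median ratio, so that 2 genes were upwards under each (7.65% and 15.3% of all genes).

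Among the added alternatives, the starts of all annotated transcripts left 1 gene upwards in treated against undifferentiated cells (13.3% of all genes) and ratios of 0.722, 0.841 and 0.824. Without the distal Grb10 start the ratios were 0.692, 0.790 and 0.831. Without motifs that have another CCGG within 16 bp the shares were 58.6%, 68.7% and 67.7% and the ratios 0.775, 0.868 and 0.882.

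Depth limits these values, and the cause of the changes was not tested. Peg10 had 25, 41 and 73 start reads and Snrpn 40, 43 and 24, motifs with fewer than 5 reads cannot be told from unmethylated ones, and differences between cultures cannot be told from those between conditions with 1 library each. The named sites other than those chosen by rule were picked after their values were seen, and intervals are not widened for that choice.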
